A study of Mus musculus with 3 samples.

Results

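The genes described here encode the machinery that moves newly made proteins into the endoplasmic reticulum (ER) and carries them onward in coated vesicles: the translocon with its signal sequence receptor, the COPII and COPI coats, and the GTPases, cargo receptors, tethers and golgins that work with them. They were taken by symbol, from the oligos with exactly 1 gene symbol in the platform annotation: symbols beginning with Sec and a number, Trappc, Sar1, Tmed and a number, Golga and a number or Sel1l, together with the coatomer (Cop), Ssr and Arf series. This gave 74 oligos for 71 genes, and 70 of those genes had a value on all 3 arrays, out of 19635 genes tested. The remaining gene, Trappc6a, had a value only on array 2, at -0.34, and was not tested. The pattern also takes a few genes of other function, which are described last.

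The data were 3 2-colour oligonucleotide arrays. Each compared RNA of kidney from 13.5 dpc (days post coitum) embryos with RNA of metanephric mesenchyme from 10.5 dpc embryos, the tissue that meets the ureteric bud and forms the nephrons. All tissue was microdissected from normal CD1 mice, with both sexes pooled, and no genetic change or treatment is named in the labels. The arrays form 1 group, each array gives 1 deposited log2 ratio per oligo, and with so few of them the precision is limited. The labels do not settle which RNA is the numerator, so each gene is placed on the positive or negative side of the ratio, and neither side is read as higher in the kidney.

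Proteins destined for secretion, for membranes or for the matrix enter the ER through the SEC61 channel. COPII-coated vesicles, whose assembly starts with the GTPase SAR1, carry them from the ER toward the Golgi. COPI-coated vesicles, assembled on ARF GTPases, return escaped proteins and work between Golgi cisternae. p24 proteins (Tmed genes) ride in both kinds of vesicle and help to select cargo, TRAPP complexes and golgins catch arriving vesicles, and SNAREs fuse them. In a forming kidney, secretory cargo includes basement membrane proteins, interstitial matrix and signalling ligands.

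Array 3 stood apart from the other arrays over the whole table. Across all 19635 genes, Pearson's r was 0.46 between arrays 1 and 2 but 0.17 and 0.16 between array 3 and arrays 1 and 2. Marker lists of other tissues lay mostly on one side: 9 of 9 red-cell markers, 7 of 7 skeletal muscle and somite markers and 7 of 8 liver, gut and yolk sac markers had a negative mean, with medians of -1.20, -0.94 and -1.02. By contrast 8 of 8 renal epithelial markers, 6 of 7 stromal markers and 6 of 8 nephron progenitor markers had a positive mean, with medians of 0.63, 0.72 and 0.48. Of neural markers 4 of 6 had a negative mean (median -0.33), and of macrophage and leukocyte markers 5 of 7 had a positive one (median 0.22). Some of the means counted here lay near 0. Among red-cell markers Hbb-y, Hba-a1 and Hba-x had -0.062, -0.084 and -0.21. Among renal epithelial markers Lhx1, Krt8 and Cdh1 had 0.071, 0.10 and 0.12. No marker passed the adjusted test, and the part of these cell types in the values below was not tested. In such whole-tissue RNA, fewer cells of a type and less RNA per cell cannot be told apart.

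The secretory genes spread to both sides of 0 with little net shift. Their median mean log2 ratio was 0.072 (array medians 0.093, 0.037 and 0.027), beside 0.002 for all genes tested, and 37 were positive and 33 negative (backgrounds 50.3% and 49.7%). Limma passed 0 of the 70 genes after Benjamini-Hochberg adjustment over all genes, beside 1 gene (0.00509%) in the whole table. With the lowest deposited ratios left out, the whole table had 0 such genes. The smallest adjusted p of a secretory gene was 0.107. At an unadjusted p under 0.05 there were 19 (27.1%), beside 16.8% of all genes and 18.3% of genes with 1 symbol. Of these, 11 were on the positive side (background 8.99%) and 8 on the negative side (background 7.83%). With 1 array left out the share lay nearer the background. Without array 1 it was 7 genes (10%, beside 8.55% of all genes), without array 2 it was 9 genes (12.9%, beside 10.6%), and without array 3 it was 14 genes (20%, beside 19.9%). Counts at this p are therefore given as descriptions.

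**Figure D1:**
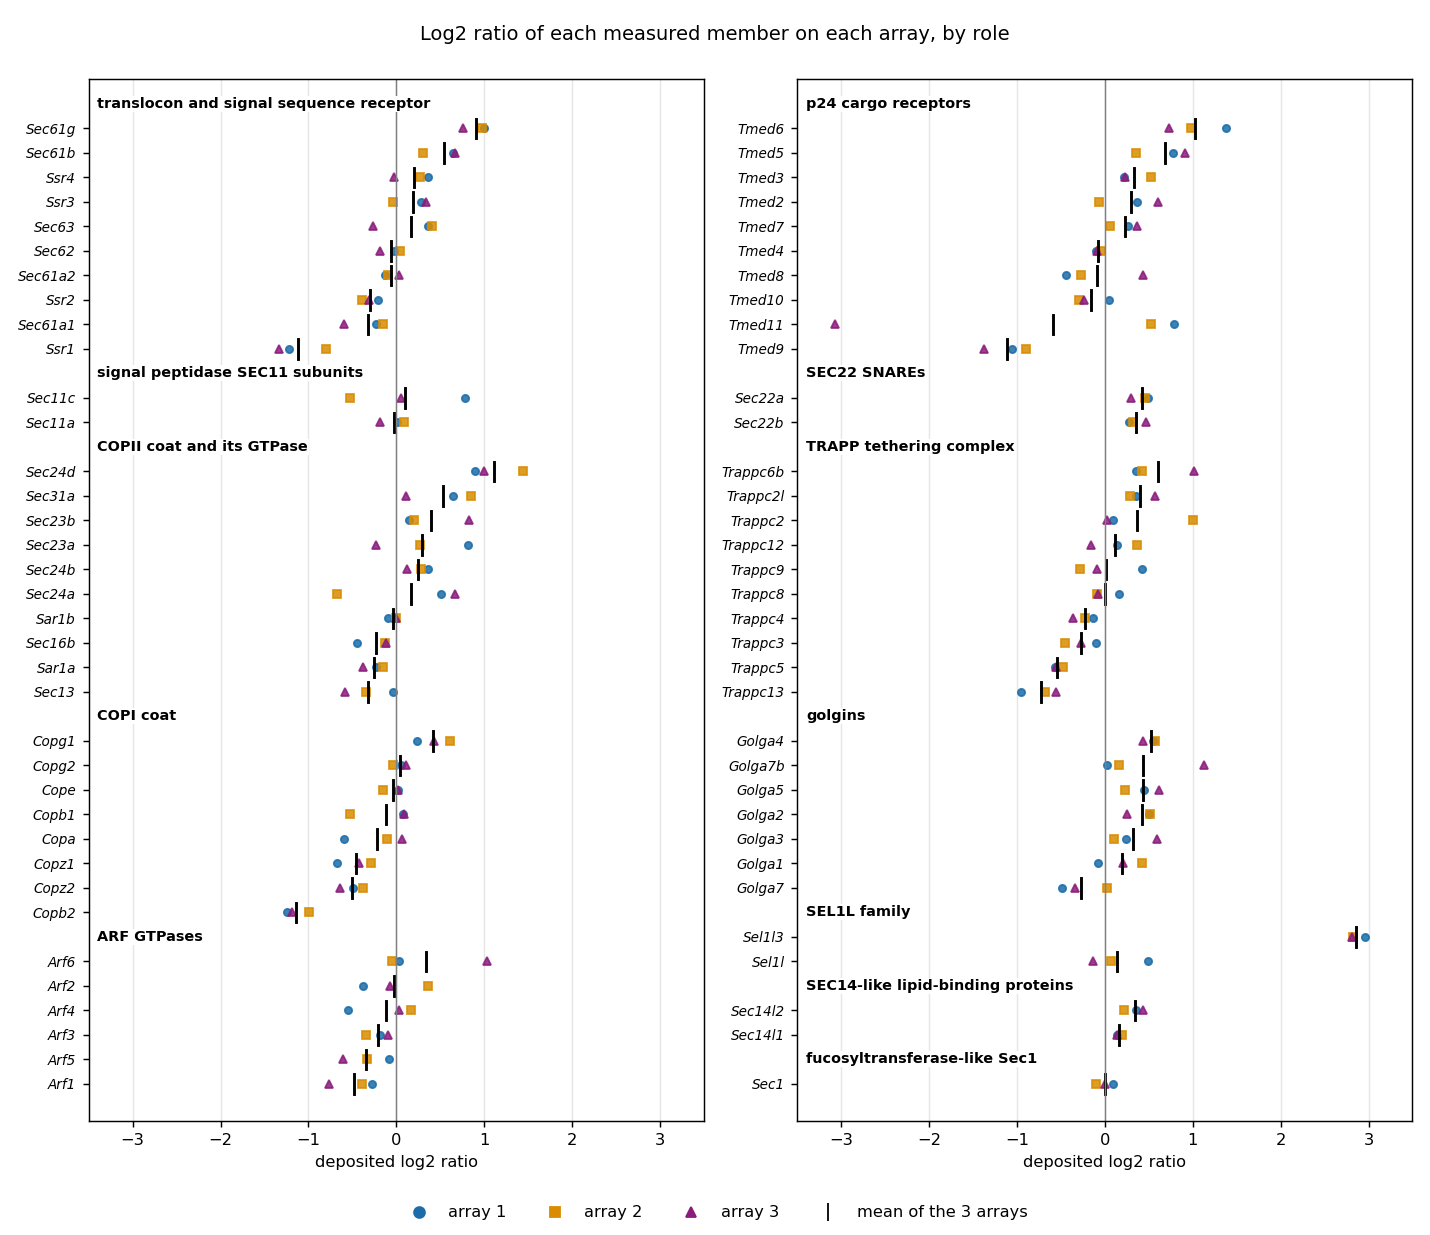
Deposited log2 ratio (horizontal axis) of the 70 measured genes on arrays 1, 2 and 3 (circle, square and triangle), grouped by role and sorted by mean (black bar). Most genes lie within 1 of 0; Sel1l3 stands alone near 2.86, Sec24d and Tmed6 lie above 1, and Copb2, Ssr1 and Tmed9 lie below -1.

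The mean reached 1 or more in size for 6 genes (8.57%, beside 5.33% of all genes). On the positive side these were Sel1l3, Sec24d and Tmed6 (3 genes, beside a background of 2.35%). On the negative side they were Copb2, Ssr1 and Tmed9 (3 genes, beside 2.98%). All 6 had the same sign on all 3 arrays. The same sign on all arrays was found for 43 of the 70 genes (61.4%), beside 41.3% of all genes and 43.9% of genes with 1 symbol. Positive on every array were 24 of them (background 21.5%), and negative on every array 19 (background 19.9%).

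**Figure D2:**
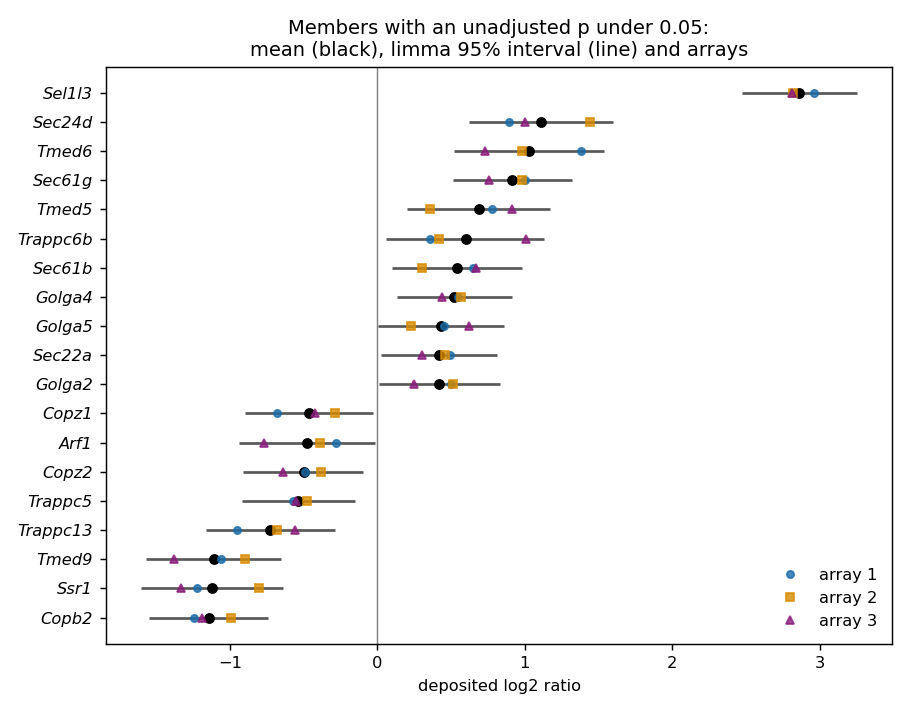
Mean log2 ratio (black dot), limma 95% interval (line) and the 3 array values (coloured markers) of the 19 genes with an unadjusted p under 0.05. Sel1l3 has the largest mean at 2.86; the intervals of Golga2, Golga5, Sec22a, Copz1 and Arf1 end close to 0.

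Genes of the translocon and its partners went different ways within the same assembly. The SEC61 channel is a trimer, and its small subunits lay on the positive side. Sec61g, which encodes the gamma subunit, had 1.00, 0.98 and 0.76 on arrays 1, 2 and 3, a mean of 0.91 ± 0.13 (SD, n = 3 arrays; limma adjusted p = 0.122). Sec61b, which encodes the beta subunit, had 0.65, 0.30 and 0.67, a mean of 0.54 ± 0.21 (limma adjusted p = 0.234). Both were positive on every array, at 1.88-fold and 1.46-fold. The pore-forming alpha subunit did not share that side: Sec61a1 had -0.23, -0.15 and -0.60 (mean -0.32), and its paralogue Sec61a2 stood at -0.063, with 1 positive array. Sec62 and Sec63, which assist the import of completed proteins, had means of -0.056 and 0.17, and in both array 3 lay below arrays 1 and 2.

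The signal sequence receptor, or TRAP complex, sits beside the channel and helps some signal sequences to engage it. Ssr1, its alpha subunit, was the most negative gene of this role, with -1.22, -0.80 and -1.33 on arrays 1, 2 and 3. Its mean was -1.12 ± 0.28 (SD, n = 3 arrays; 2.17-fold; limma adjusted p = 0.117; 95% interval -1.60 to -0.64). Ssr2, the beta subunit, was negative on all arrays with a mean of -0.30 ± 0.088, whereas Ssr3 and Ssr4 had means of 0.19 and 0.20 with 1 array just below 0 in each. The median over the 10 measured genes of the translocon and receptor was 0.055, with 5 positive and 5 negative, and 0.019 without array 1 and -0.0014 without array 2. The catalytic signal peptidase subunits Sec11a and Sec11c, which cut off signal sequences, had means of -0.032 and 0.10. Sec11c spread from -0.53 on array 2 to 0.78 on array 1.

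In the COPII coat, the cargo-binding subunit Sec24d stood furthest from 0. It had 0.89, 1.44 and 1.00 on arrays 1, 2 and 3, a mean of 1.11 ± 0.29 (SD, n = 3 arrays; 2.16-fold; limma adjusted p = 0.12), and 1.17 without array 3. The SEC24 paralogues differ in the cargo they bind, and the others measured lay nearer 0: Sec24b had 0.36, 0.28 and 0.12 (mean 0.25), and Sec24a had 0.51, -0.67 and 0.67 (mean 0.17), with array 2 opposite to the others. Sec31a, the outer cage subunit, had 0.64, 0.85 and 0.11, a mean of 0.53 ± 0.38 (limma adjusted p = 0.309). All 3 of its arrays were positive, with array 3 the lowest.

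The inner-coat GTPase-activating subunits Sec23a and Sec23b had means of 0.29 ± 0.52 and 0.39 ± 0.38. Sec23a ranged from 0.82 on array 1 to -0.23 on array 3, while Sec23b was positive throughout with its highest value, 0.83, on array 3. Sec13, which pairs with SEC31 in the outer cage and also serves the nuclear pore, was the lowest of the role, with -0.041, -0.34 and -0.58 (mean -0.32 ± 0.27). The initiating GTPases Sar1a and Sar1b had means of -0.25 and -0.036, and Sec16b, a scaffold of ER exit sites, had -0.23. These 3 genes and Sec13 were negative on all arrays, but Sar1b lay next to 0 on arrays 2 and 3 (-0.10, -0.0029 and -0.0014). Over the 10 measured COPII genes the median was 0.21, with 8, Sar1b among them, of the same sign on all arrays (background 41.3%). That median was 0.0094 without array 1 and 0.058 without array 3.

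In the COPI coat 6 of 8 genes had a negative mean, and the median was -0.17. The array medians were -0.24, -0.22 and 0.038, so array 3 lay on the other side, and without array 3 the median of the means was -0.29. Copb2, the beta-prime subunit that binds retrieval signals on cargo, had -1.24, -0.99 and -1.19 on arrays 1, 2 and 3. Its mean was -1.14 ± 0.14 (SD, n = 3 arrays; 2.21-fold; limma adjusted p = 0.109; 95% interval -1.55 to -0.74), and its arrays lay close together. The beta subunit Copb1, a separate coat protein despite the similar name, had 0.079, -0.53 and 0.085 (mean -0.12).

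The zeta subunits went with Copb2. Copz1 had -0.68, -0.29 and -0.42 (mean -0.46 ± 0.20; limma adjusted p = 0.277), and its paralogue Copz2 had -0.49, -0.38 and -0.64 (mean -0.50 ± 0.13; limma adjusted p = 0.232). Both were negative on every array. The gamma subunits did not: Copg1 was the highest of the role with 0.23, 0.61 and 0.43 (mean 0.42 ± 0.19; limma adjusted p = 0.304), and Copg2 had a mean of 0.041. Copa, which with COPB2 forms part of the outer layer of the coat, had -0.60, -0.11 and 0.061 (mean -0.22), and Cope had -0.039. The delta subunit is encoded by Arcn1, which the symbol pattern does not take; it was positive on all arrays, at 0.51, 0.53 and 0.58, a mean of 0.54 ± 0.04. Arcn1 was singled out here after its values were seen.

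ARF GTPases recruit COPI and clathrin adaptors to Golgi membranes, apart from ARF6, which acts at the plasma membrane. Of 6 measured, 5 had a negative mean, and the median was -0.16, or -0.061 without array 1 and -0.24 without array 2. Arf1, the main recruiter of coatomer, was the lowest, with -0.28, -0.39 and -0.77 (mean -0.48 ± 0.25; 1.4-fold; limma adjusted p = 0.287). Arf3 and Arf5 were also negative on all arrays, with means of -0.21 and -0.34, while Arf2 and Arf4 had means of -0.031 and -0.12 and arrays on both sides. Arf6 was the exception, with a mean of 0.34 ± 0.60 that rested on array 3: the arrays had 0.034, -0.051 and 1.03, and without array 3 the mean was -0.0086. ARF paralogues are closely related in sequence; the oligo sequences were not used here, and shared signal among paralogues was not tested.

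The p24 cargo receptors held both positive and negative members of over 2-fold. Tmed6 had 1.38, 0.98 and 0.73 on arrays 1, 2 and 3, a mean of 1.03 ± 0.33 (SD, n = 3 arrays; 2.04-fold; limma adjusted p = 0.134). Tmed5 had 0.78, 0.36 and 0.91, a mean of 0.69 ± 0.29 (limma adjusted p = 0.204). Tmed9 lay opposite, with -1.06, -0.90 and -1.38, a mean of -1.11 ± 0.24 (2.16-fold; limma adjusted p = 0.111; 95% interval -1.57 to -0.65). Each of these genes had 1 sign on all arrays.

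Among the other p24 genes, Tmed2 and Tmed10, which encode core members of the heteromeric p24 complexes, had means of 0.30 and -0.16. Tmed3 and Tmed7 were positive on all arrays, with means of 0.33 and 0.23, Tmed4 was negative on all arrays at -0.077, and Tmed8 stood at -0.093 with array 3 positive. Tmed11 had 0.79 and 0.52 on arrays 1 and 2 but -3.07 on array 3, so that its mean of -0.59 ± 2.16 turned to 0.66 without array 3. The median of the 10 genes was 0.076, and 0.15 without array 1 and 0.16 without array 3.

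**Figure D3:**
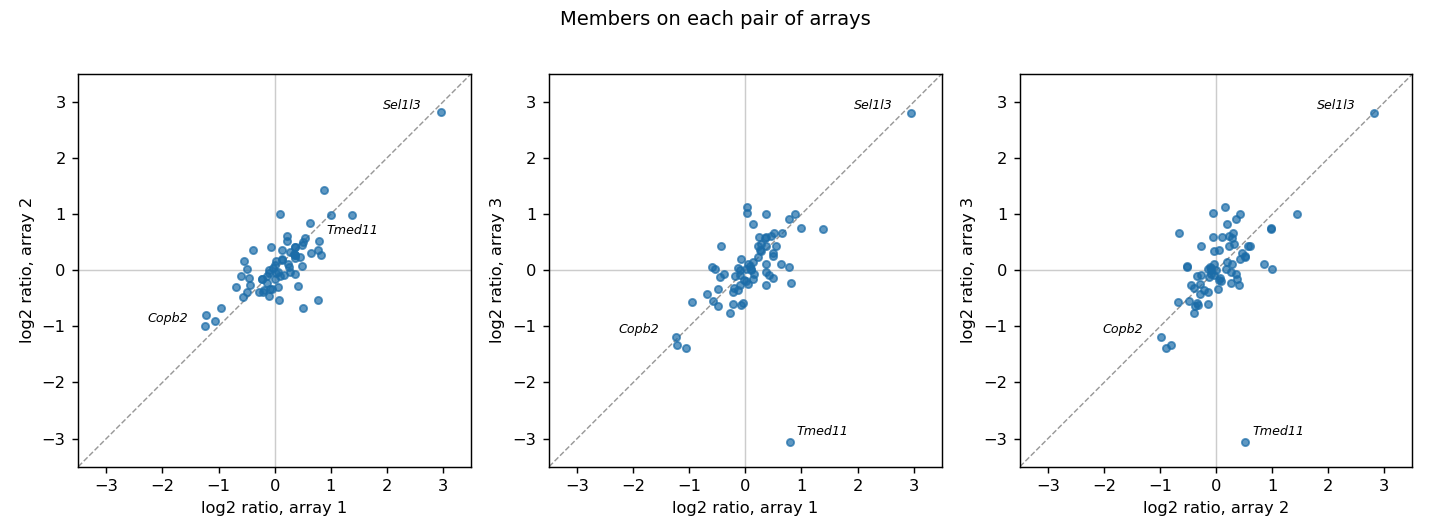
Log2 ratio of each of the 70 genes on 1 array against another, for the 3 pairs of arrays, with the line of equality dashed. The points scatter about the line. The share with the same sign was 75.7% for arrays 1 and 2, 78.6% for 1 and 3, and 68.6% for 2 and 3. For all genes it was 69.8%, 57.2% and 55.7%. Tmed11 lies far from the line in both panels that show array 3 (0.79 and 0.52 on arrays 1 and 2 against -3.07).

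For these genes array 3 was less apart than over the whole table. Across the 70 genes Pearson's r was 0.79 between arrays 1 and 2, 0.60 between 1 and 3 and 0.59 between 2 and 3, with Spearman's rho of 0.66, 0.62 and 0.58. Without Tmed11 and Sel1l3, the genes farthest out, r was 0.69, 0.70 and 0.63. For all 19635 genes rho was 0.52, 0.19 and 0.17, and for the 14746 genes with 1 symbol 0.56, 0.25 and 0.22. These are correlations across genes, which share arrays and are not independent replicates. The median SD over the arrays was 0.20 for the secretory genes and 0.32 for all genes. It was 0.30 for genes with 1 symbol and 0.25 for the 147 genes of the other pathway lists described below. Signal intensities were not used here, so the part of spot brightness in this was not tested.

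Tethers and SNAREs act when vesicles arrive. Sec22a and Sec22b, SNAREs of ER-to-Golgi traffic, were positive on all arrays. Sec22a had 0.49, 0.46 and 0.30 (mean 0.42 ± 0.10; limma adjusted p = 0.28), and Sec22b, the average of 2 oligos with means of 0.50 and 0.21, had a mean of 0.35 ± 0.10. In the TRAPP complexes, which activate RAB GTPases at the Golgi, the median over 10 measured genes was 0.0087, with 5 on each side, and -0.13 without array 1. Trappc13 had -0.95, -0.68 and -0.56 (mean -0.73 ± 0.20; 1.66-fold; limma adjusted p = 0.167), and Trappc5 had -0.57, -0.48 and -0.55 (mean -0.54 ± 0.046; limma adjusted p = 0.206). Both were negative on every array.

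Trappc6b lay on the other side, with 0.36, 0.42 and 1.01 (mean 0.60 ± 0.36; limma adjusted p = 0.265). Trappc2l was positive on all arrays with a mean of 0.40 ± 0.14. Trappc3 and Trappc4, subunits of the shared TRAPP core, were negative on all arrays with means of -0.27 and -0.23. Trappc8, Trappc9 and Trappc12, which belong to the larger TRAPP assemblies, had means from -0.00078 to 0.12. The oligos of Trappc2 disagreed: 1 had 0.53, 2.12 and -0.13, and the other -0.34, -0.12 and 0.18, and the value of 1 oligo on array 2 sets most of its mean of 0.37.

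Golgins are coiled-coil proteins that capture vesicles at the Golgi. The 7 genes taken by the Golga symbol, which include Golga7 and its paralogue Golga7b, leaned to the positive side. Of their means 6 of 7 were positive, and the median was 0.42, or 0.18 without array 3. Golga4, a golgin of the trans-Golgi, had 0.55, 0.57 and 0.44 as the average of 2 oligos (mean 0.52 ± 0.071, limma adjusted p = 0.215). Its oligos disagreed: 1 had 0.066, 0.52 and -0.015 (mean 0.19), and the other 1.04, 0.62 and 0.89 (mean 0.85). The SD of 0.071 is that of their average. Golga5, or golgin-84, had 0.45, 0.23 and 0.62 (mean 0.43 ± 0.19; limma adjusted p = 0.295). Golga2, or GM130 of the cis-Golgi, had 0.50, 0.51 and 0.25 (mean 0.42 ± 0.15; limma adjusted p = 0.291). These 3 genes were positive on every array, Golga4 only as the average of its oligos. Golga3 was also positive on every array, with a mean of 0.32, and Golga1 had a mean of 0.19. Golga7, which is a partner of a palmitoyltransferase and not a coiled-coil tether, was the lowest, with -0.49, 0.03 and -0.34 (mean -0.27), and its paralogue Golga7b had a mean of 0.44 that came mostly from 1.13 on array 3.

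Sel1l3 was the gene furthest from 0. It had 2.96, 2.82 and 2.81 on arrays 1, 2 and 3, a mean of 2.86 ± 0.081 (SD, n = 3 arrays), or 7.27-fold, with a limma 95% interval of 2.47 to 3.25. In the whole table it ranked 16th by the size of its mean and 3rd by its p, and its limma adjusted p was 0.107. Its arrays differed by less than those of most genes, and without any 1 of them the mean lay between 2.82 and 2.89. Sel1l, the adaptor of the HRD1 ubiquitin ligase in ER-associated degradation, lay much nearer 0, with 0.49, 0.068 and -0.13 (mean 0.14 ± 0.32). SEL1L3 shares SEL1-like repeats with SEL1L.

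The pattern also took Sec14l1 and Sec14l2, which encode lipid-binding proteins and no coat subunits, with means of 0.16 and 0.34, positive on all arrays. Sec1, a fucosyltransferase-like gene of the secretor blood group locus, had a mean of -0.0012. With only the 38 translocon, COPII, COPI and p24 genes the median was -0.038 in place of 0.072, with 18 positive and 20 negative.

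Promoter sequence was looked at because several secretory genes are known targets of the unfolded protein response (UPR), whose factors XBP1 and ATF6 bind the element TGACGTGG. RefSeq promoters (GRCm38.p6) were found for 58 of the 71 genes, 67 promoters in all, and the 250 bases before each start were searched on both strands. TGACGTGG was found in 4 of the 67 promoters (5.97%), beside 0.563% of all 32851 promoters and 0.672% of the 14136 promoters of named genes tested. Its core ACGTGG, which lies inside it, was found in 18 of 67 (26.9%), beside 6.91% and 8.48%. The ER stress element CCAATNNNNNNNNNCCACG, which can overlap that core, was found in 0 of 67 (0.113% and 0.163%), and the cyclic AMP response element TGACGTCA in 1 (1.49%, beside 1.55% and 2.02%), that of Cope. Such matches are descriptions of letters and do not show binding.

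The windows below hold the full element in the first 4 genes and the core in Copb2 and Ssr1, and are shown because they set the same letters beside unlike ratios. The search ended at the start, so whether the Copb2 match extends to the full element past it was not examined. Capitals mark the match, on the gene strand or, where written CCACGT, on the other strand. Sec24d is at chr3:123267440-123267495 (+ strand), with the match 26 to 19 bases before the start. Arf1 is at chr11:59228209-59228276 (- strand, 84 to 77 bases before), Copb1 at chr7:114254681-114254738 (- strand, 28 to 21 before) and Sec16b at chr1:157506722-157506789 (+ strand, 44 to 37 before). Copb2 is at chr9:98563694-98563730 (+ strand, 7 to 2 before), and the Ssr1 window nearer the start at chr13:37994209-37994264 (- strand, 26 to 21 before). All lie upstream of the annotated start.
Sec24d: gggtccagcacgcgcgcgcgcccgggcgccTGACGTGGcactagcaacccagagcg
Arf1: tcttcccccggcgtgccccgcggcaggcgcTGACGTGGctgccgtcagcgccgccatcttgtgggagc
Copb1: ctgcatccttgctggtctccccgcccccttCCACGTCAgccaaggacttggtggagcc
Sec16b: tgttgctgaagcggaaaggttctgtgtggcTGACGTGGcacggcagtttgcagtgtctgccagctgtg
Copb2: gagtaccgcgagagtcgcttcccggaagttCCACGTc
Ssr1: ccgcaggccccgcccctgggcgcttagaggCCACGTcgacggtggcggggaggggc

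Genes with these letters lay on both sides of the ratio. Of the 4 with the full element, Sec24d had a mean of 1.11, while Arf1, Copb1 and Sec16b had -0.48, -0.12 and -0.23. Of the 18 with the core, 8 had a positive and 10 a negative mean, from -1.14 for Copb2 and -1.12 for Ssr1 to 1.11 for Sec24d.

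Other genes of the early secretory pathway were as divided as those of the symbol pattern. Of 147 measured genes in 8 lists, 16 on each side had an unadjusted p under 0.05 (backgrounds 8.99% and 7.83%), 0 passed limma over all genes, and the median was -0.036. The 32 genes at that p became 14 without array 1, 15 without array 2 and 30 without array 3. In the signal recognition particle and its receptor, 1 of 6 genes had such a p, Srp19, an RNA-binding subunit, at 0.62 ± 0.094. Among 14 genes of signal peptidase and oligosaccharyltransferase, 1 was positive and 2 negative: Tusc3, a subunit that assists glycosylation by its redox activity, stood at 0.65 ± 0.15, and Rpn1, ribophorin I, at -0.61 ± 0.25. Without array 2 the counts of both lists were 0, and without array 1 the count of the second list was 1.

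The ER folding and stress genes followed. Their counts are descriptions, beside 16.8% of all genes at an unadjusted p under 0.05 (8.99% positive and 7.83% negative). Of 22 ER chaperones and folding enzymes, 1 positive and 2 negative genes had an unadjusted p under 0.05, the first being Dnajb9, the BiP co-chaperone ERdj4, with 1.36, 1.00 and 2.11 (mean 1.49 ± 0.57; 2.81-fold; limma adjusted p = 0.129). The list's median was -0.084, with 16 of 22 negative, and its count at that p was 1 without array 1 and 1 without array 2. Of 17 genes of ER-associated degradation, 2 were positive and 3 negative at that p, or 2 in all without array 1 and 2 without array 2. The mannosidase-like Edem3 stood at 1.06 ± 0.19 and its relative Edem2 at -0.52 ± 0.23, and the ubiquitin-conjugating enzyme Ube2j2 at -0.82 ± 0.19. Of 14 transcription factors, sensors and proteases of the UPR and secretory response, 4 were positive and 0 negative at that p, and the count was 1 without array 1 and 2 without array 2. Atf6 stood at 0.78 ± 0.37, Creb3 at 0.63 ± 0.25 and Creb3l2, a factor for secretory genes in matrix-making cells, at 0.60 ± 0.31. Over the 14 genes the median was 0.17, with 10 positive and 4 negative means. Xbp1 was negative on all arrays, with -0.46, -0.52 and -0.14 (mean -0.37 ± 0.20, limma adjusted p = 0.349).

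Cargo receptors, regulators and later steps showed the same division. The counts stand beside the same background of 16.8% of all genes (8.99% positive and 7.83% negative). Of 25 cargo receptors and coat regulators, 2 were positive and 4 negative at that p. Kdelr3, a receptor that returns KDEL proteins to the ER, had 2.00, 1.47 and 1.40 (mean 1.62 ± 0.33; 3.07-fold; limma adjusted p = 0.107), while Ergic1, Ergic3 and Arfgap3 stood at -0.84 ± 0.23, -0.78 ± 0.15 and -0.74 ± 0.47. Of 28 SNAREs and tethers, 2 were positive and 4 negative, with 2 in all without array 1. Stx5a, the SNARE of ER-to-Golgi fusion, had -1.57, -1.05 and -1.63 (mean -1.42 ± 0.32; 2.67-fold; limma adjusted p = 0.109), and Rab6a stood at 1.07 ± 0.23. The paralogous GTPases Rab1a and Rab1b, which act in ER-to-Golgi tethering, lay opposite each other at 0.71 ± 0.26 and -0.75 ± 0.26. Of 21 clathrin and adaptor genes, 3 were positive and 1 negative, with 2 in all without array 1 and 1 without array 2. Gga2, a trans-Golgi adaptor, stood at -1.79 ± 0.52 (limma adjusted p = 0.109), and Ap3m2, Clta and Ap2m1 at 0.93 ± 0.63, 0.66 ± 0.51 and 0.56 ± 0.21.

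**Figure D4:**
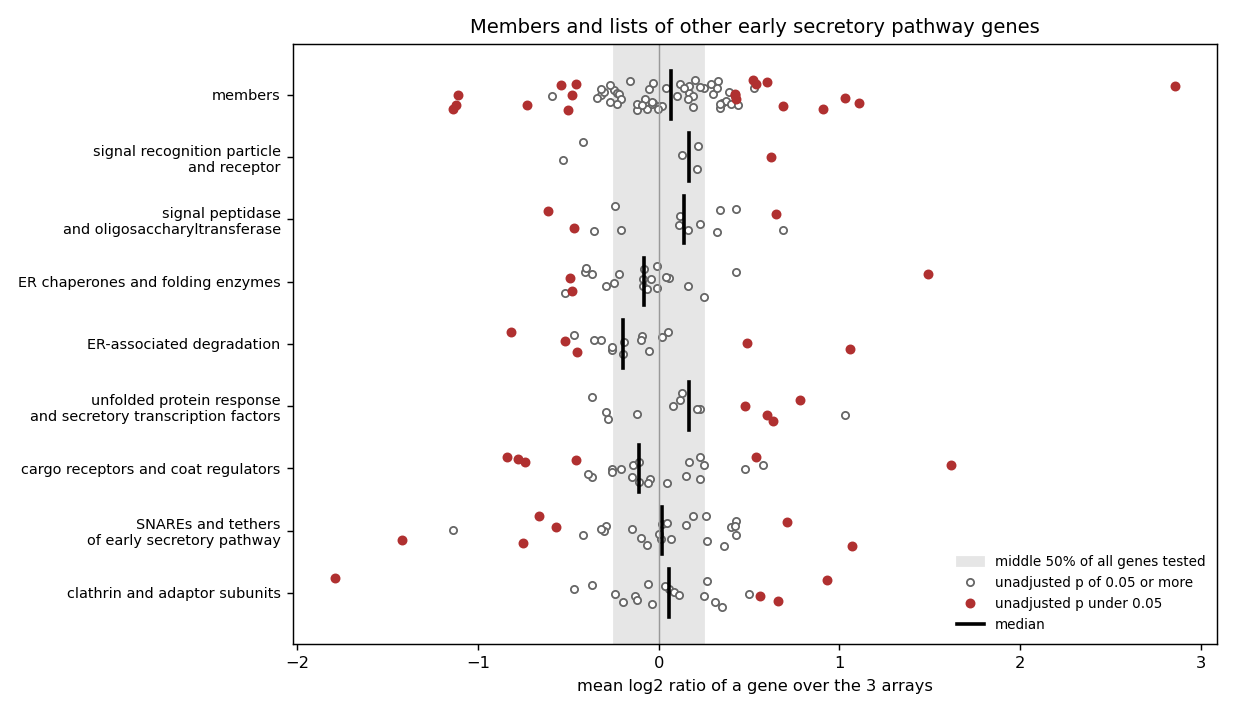
Mean log2 ratio over the 3 arrays (horizontal axis) of each measured gene in the symbol pattern (top row, called members) and in 8 other lists. The lists hold other early secretory pathway genes and, in the last, clathrin and adaptor genes of later steps. Filled points have an unadjusted p under 0.05, and a bar marks each median. The grey band spans the middle 50% of all genes, from -0.25 to 0.25, and each row's median lies inside it.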

How the data were processed

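The authors deposited 1 log2 ratio per oligo and array, and base 2 was inferred because it turns 99.7 to 99.8% of values into ratios with 3 decimals (tolerance 0.01 of the final digit). Per the labels, RNA was amplified and labelled by an amino allyl method, images were read with ImaGene 5.5, and ratios were normalized by print-tip loess and between arrays in R, with a lowess step over 20% of the data. Dye assignment, the array concerned by a dye swap and the numerator are not given in the sources used here. Dye effects on array 3, on the means and on the p-values were thus not tested. Such normalization sets the middle of the ratios near 0.

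Control spots (883 of 22702) were left out, oligos of a symbol were averaged, and genes measured on all 3 arrays were kept (19635). The test of each mean log2 ratio against 0 used limma 3.58.1 under R 4.3.3 (lmFit, eBayes, two-sided, Benjamini-Hochberg over all genes, threshold 0.05), after the script was tested on simulated data. The labels do not tie the arrays to separate pools of tissue; p-values thus cover the variation among 3 arrays, possibly technical variation alone. Array values are given for genes with an unadjusted p under 0.05 or a mean of at least 1 in size. They are also given for the highest or lowest mean of a role with at least 3 measured genes, and paralogues are named. Array values given for other genes were chosen after their values were seen. In the other lists, up to 4 genes of at least 0.5 in size at that p are named. Arcn1 and Xbp1 are named outside that rule. The members and lists were chosen with earlier results of these data known.
Per the labels, a control channel under 10 was set to 10. Alternatives were array centring and scaling, array weights, single oligos, genes with 1 symbol alone, values on at least 2 arrays, the lowest ratios left out, and each array left out.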

Additional observations from a re-analysis of the deposited data

How the results depend on the processing

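The 1 gene past limma's adjusted threshold in the whole table was 0 with arrays centred and scaled, 0 with the lowest ratios left out, and 0 without any 1 array (from 0 to 0; limma still gave 1678 to 3913 genes at an unadjusted p under 0.05 there). Secretory genes with an unadjusted p under 0.05 numbered 7 to 14 with 1 array left out, in place of 19; those of the other pathway lists numbered 14 to 30 in place of 32. The median of the secretory genes was 0.03 with array weights, 0.033 with arrays centred and scaled, -0.038 for translocon, COPII, COPI and p24 genes only, and 0.027 to 0.064 with 1 array left out. With 1 array left out, medians ran from 0.0094 to 0.27 for COPII, -0.29 to -0.13 for COPI, -0.24 to -0.061 for ARF, 0.11 to 0.16 for p24, 0.18 to 0.42 for golgins, -0.0014 to 0.064 for the translocon, -0.13 to 0.053 for TRAPP and -0.14 to 0.16 for SEC11. The golgin median was 0.25 with array weights, and the SEC22 median was 0.38 with arrays centred and 0.38 with arrays centred and scaled. With 1 array left out, 16 of the 70 secretory genes turned sign: Arf2, Arf4, Arf6, Copb1, Cope, Sec1, Sec11a, Sec11c, Sec24a, Sec62, Sel1l, Tmed8, Tmed11, Trappc8, Trappc9 and Trappc12. The 10 settings were run for the 23 genes that had an unadjusted p under 0.05 or the highest or lowest mean of a role of at least 3 genes. Of these only Arf6 turned sign, running from -0.0086 (without array 3) to 0.53 with 1 array left out, and their smallest limma adjusted p in any setting was 0.066. The lowest mean of the whole table, -6.64, equals the lowest deposited log2 ratio, so that gene lay at this limit on all arrays. Apart from the fewer arrays and the lowest ratios, the cause of these changes was not tested. Each array held both RNAs, so the test of its log2 ratio against 0 was already a within-array comparison. Spot intensities were not used, so dim or saturated spots were not examined.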
